A study of Homo sapiens with 10 samples.

Results

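The genes described here encode the core of the spliceosome, the RNA and protein machine that removes introns from pre-mRNA. The 58 members were taken from a list of snRNP and spliceosome genes by symbol, after each counted transcript had been assigned to its gene, out of 31015 genes with counted intervals. Membership was set by symbol and not by a level, although the list was drawn up with earlier results of these data known. Read coverage decided which of a gene's overlapping intervals was counted. By role, 7 encode Sm core proteins, 5 belong to or associate with the U1 snRNP, and 13 belong to the U2 snRNP, its SF3A and SF3B parts or the U2AF heterodimer. A further 7 form the LSM2-8 ring of U6, 14 belong to the U4/U6.U5 tri-snRNP and the B complex, 7 to the PRP19 complex and its partners, and 5 are DHX helicases or a second-step factor.

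All libraries came from 22RV1 cells, an established line that models prostate cancer resistant to castration. SLAM-seq was used: 4-thiouridine (4sU) was given for the last 10 min, and after alkylation the labelled positions of an RNA are read as C in place of T. There were 5 groups of 2 libraries: untreated cells as control, 20 µM SRPIN340, 50 µM Endovion (labelled SCO-101), THZ531, and THZ531 together with Endovion. Each treatment lasted 4 h. SRPIN340 inhibits SRPK1, the kinase that phosphorylates SR splicing factors, Endovion was studied as an inhibitor of the same kinase, and THZ531 inhibits CDK12, a kinase of RNA polymerase II. The study's methods give THZ531 at 100 nM and the series description gives it at 150 nM. Control and treated cells alike carried the 4sU label. A vehicle for the control cells is not given in the sources used here.

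Splicing begins when the U1 snRNP binds the 5′ splice site and U2AF and the U2 snRNP take the 3′ splice site and the branch point. The U4/U6.U5 tri-snRNP then joins, helicases rearrange the RNAs, and the PRP19 complex holds the activated machine together while both chemical steps take place. The Sm ring sits on U1, U2, U4 and U5, and the LSM2-8 ring sits on the 3′ end of U6. The genes are expressed in every cell that makes mRNA.

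Reads of the 3′ ends of mRNAs were counted in 2 classes. Nascent RNA here means reads with a T>C conversion, total RNA means all reads, and the labelled share is the percentage of a gene's reads that carry a conversion. No library was made without the label. T>C reads from sequencing errors or from variants of the cell line could therefore not be set apart from labelled ones. Levels are given in CPM, the reads of a gene scaled to a common library size of that class. Since CPM of nascent RNA are relative to all T>C reads of a library, a change in the labelling of all genes together would not show in them, and fewer cells or less RNA per cell cannot be told apart from bulk samples. The libraries held between 35517462 and 53592904 mapped reads, of which 1011598 to 1576121 were T>C reads on genes, or 5.04% to 5.70% of the reads on genes. Luminal prostate markers were present, with 8 of 10 over 100 reads in every library, and the markers of other cell types were at most a summed 5.14 CPM, with 5 of 13 at 0 in every library. The summed luminal markers were at 1972 to 1977 CPM in control, 1926 to 1935 with SRPIN340, 1745 to 1813 with Endovion, 1497 to 1608 with THZ531 and 1328 to 1518 with both, and their part in the results was not tested. Whether the 2 libraries of a group came from separate cultures is not stated, so the p-values measure the spread between these libraries, which may be technical.

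Of the 58 members, 53 had enough T>C reads to be tested for nascent RNA and for the labelled share, and 54 had enough reads to be tested for total RNA. LSM2, the helicase DHX16 and the tri-snRNP protein PRPF31 were listed at 0 in every library. PRPF8, the large protein at the heart of the spliceosome, had 64 reads over the 10 libraries and no T>C read. All 4 genes have intervals of equal length on alternative contigs of the genome, 5 for LSM2, 12 for DHX16, 9 for PRPF31 and 1 for PRPF8, and these held 3, 14, 0 and 56 reads. Whether reads of these genes were lost to such copies was not tested. SF3A2 had 0 to 11 T>C reads per library and was tested for total RNA only, and U2AF1, tested for both, had only 4 to 15 T>C reads per library.

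The promoters of 4 members are shown as those of the genes the results turn on: SNRPF and LSM8 were the members called in nascent RNA, and RBM25 and DHX8 had the smallest adjusted p in total RNA with THZ531. The sequences are RefSeq's for GRCh38.p14, 250 bases before the transcription start and the first 50 bases from it. All 4 genes lie on the plus strand. Capitals mark matches, on either strand, to CCGGAAG (an ETS-type motif), GGGCGG (the GC box) or CCAAT (the CCAAT box). The windows are chr12:95858702-95859001 for SNRPF, chr7:118183914-118184213 for LSM8, chr14:73058284-73058583 for RBM25 and chr17:43483725-43484024 for DHX8.
SNRPF: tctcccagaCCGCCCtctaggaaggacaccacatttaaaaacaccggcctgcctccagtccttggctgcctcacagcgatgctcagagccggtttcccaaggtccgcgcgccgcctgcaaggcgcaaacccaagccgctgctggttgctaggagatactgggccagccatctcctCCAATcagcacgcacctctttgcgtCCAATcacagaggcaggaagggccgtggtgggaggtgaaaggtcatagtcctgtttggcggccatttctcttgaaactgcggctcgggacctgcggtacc
LSM8: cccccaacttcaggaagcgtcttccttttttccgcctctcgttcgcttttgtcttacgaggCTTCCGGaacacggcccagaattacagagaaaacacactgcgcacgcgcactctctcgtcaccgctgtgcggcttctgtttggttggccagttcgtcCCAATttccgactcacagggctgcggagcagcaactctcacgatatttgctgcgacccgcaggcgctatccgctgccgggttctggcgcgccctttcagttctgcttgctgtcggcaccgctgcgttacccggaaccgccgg
RBM25: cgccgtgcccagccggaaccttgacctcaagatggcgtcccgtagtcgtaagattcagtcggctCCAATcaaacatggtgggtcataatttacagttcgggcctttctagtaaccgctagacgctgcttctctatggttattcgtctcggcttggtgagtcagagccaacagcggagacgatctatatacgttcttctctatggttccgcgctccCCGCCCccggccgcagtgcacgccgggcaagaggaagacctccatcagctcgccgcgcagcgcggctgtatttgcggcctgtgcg
DHX8: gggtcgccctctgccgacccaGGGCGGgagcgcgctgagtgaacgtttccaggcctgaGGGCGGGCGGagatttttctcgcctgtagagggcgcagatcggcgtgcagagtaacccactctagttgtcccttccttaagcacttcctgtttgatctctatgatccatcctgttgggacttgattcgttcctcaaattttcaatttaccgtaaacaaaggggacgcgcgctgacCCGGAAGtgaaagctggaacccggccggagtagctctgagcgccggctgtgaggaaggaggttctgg

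The SNRPF promoter held 1 GC box and 2 CCAAT boxes and no CCGGAAG, while that of LSM8 held 1 CCGGAAG and 1 CCAAT box. RBM25 had 1 GC box and 1 CCAAT box, and DHX8 had 3 GC boxes, of which 2 overlap, and 1 CCGGAAG. Among the 53 members matched to a RefSeq promoter, 28 (52.8%) held CCGGAAG, against 10.7% of all 27305 promoters and 14.4% of the 15345 promoters of protein-coding genes. GGGCGG was in 36 (67.9%), against 44.6% of all and 59.2% of coding promoters. CCAAT was in 23 (43.4%), against 35.7% and 36.6%. The E-box CACGTG, the site of MYC and MAX, was in 2 members (3.77%), against 7.43% and 8.89%, and the TATA motif TATAAA was also in 2 (3.77%), against 12% and 9.63%. TGACGTCA, the site of CREB, was in 1 member, and GCATGCGC, part of the NRF1 site, was in 5 (9.43%), against 3.27% and 4.25%. These are letter matches in a fixed window and no measure of binding.

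In untreated cells, the members were labelled at a median of 5.88% over the 54 with at least 100 reads in both control libraries, against a median of 4.83% over all 9778 such genes. The DHX helicases and SLU7 had the highest median of the role groups, 8.28%, and the LSM ring the lowest, 5.38%. For scale, a list of short-lived mRNAs stood at 10.7% (8 of 10 measured) and a list of stable mRNAs at 3.79% (10 of 10). U2AF2, the large subunit of the factor that reads the polypyrimidine tract, had the highest share of the members, with 25.1% and 26.6% in the control libraries, and 20.7% to 24.3% in the treated libraries. CWC15 of the PRP19 complex followed, at 18.5% and 15.0% in control and 12.5% to 19.6% after treatment. A share over 20% was seen in 171 genes (1.75%), so U2AF2 belongs to a small group. What sets its share, a T>C variant of the cell line included, was not tested. At the lower end were U2AF1 (1.60%), PRPF6 (1.82%), a bridge between tri-snRNP parts, and LSM7 (2.54%).

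**Figure D1:**
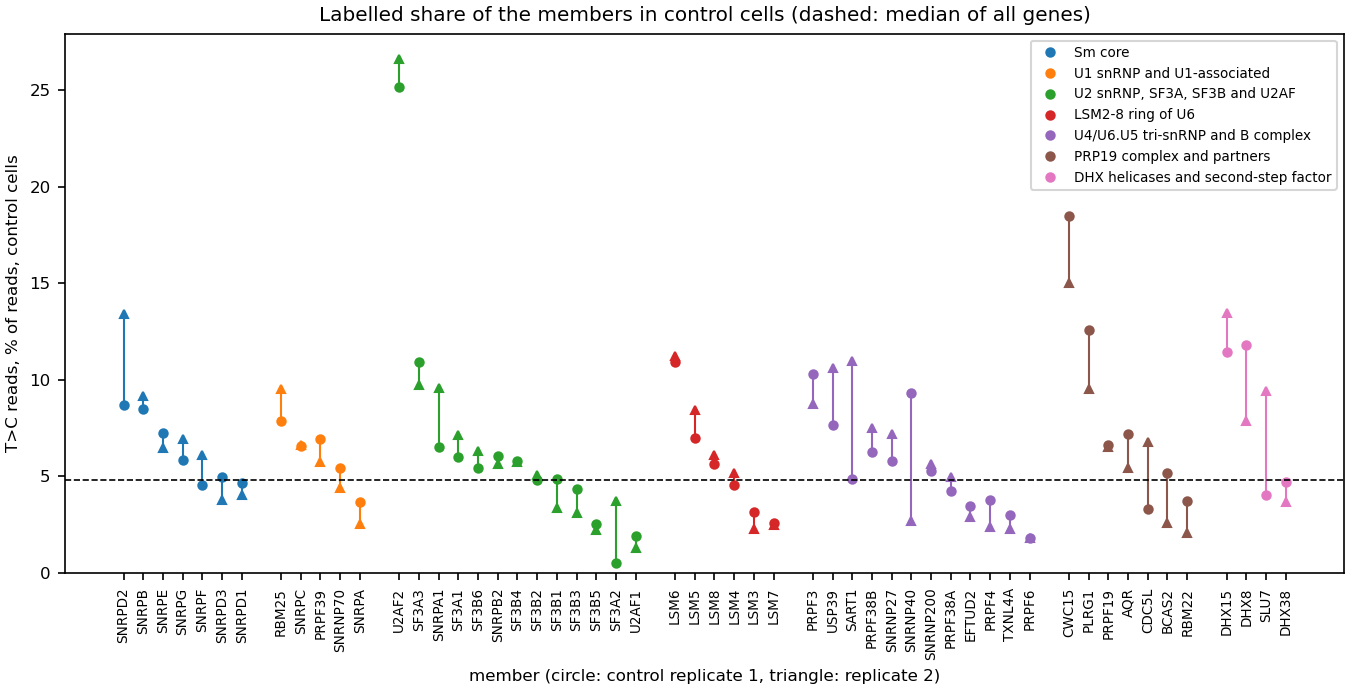
Labelled share of each member in untreated 22RV1 cells, in percent of its reads, with members ordered by role on the horizontal axis. Circles are control replicate 1, triangles control replicate 2, and the dashed line is the median of all genes at 4.83%. U2AF2 stands highest, at 25.1% and 26.6%.

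In nascent RNA, few of the spliceosome genes passed the test. SNRPF, the Sm F protein, rose in all 4 treatments, LSM8, the subunit that makes the nuclear LSM ring distinct from the cytoplasmic one, rose with SRPIN340 and with THZ531, and no other member passed the test. No member was called as lower. The test is edgeR's quasi-likelihood test over all 10 libraries. A gene was called at a Benjamini-Hochberg adjusted p under 0.05 over all 9946 genes tested for nascent RNA. On simulated counts for THZ531 against control, this test called only 22.4% of the genes given a log2 change of 1. A member without a call may therefore still have changed.

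In control, SNRPF nascent RNA was at 249 and 138 CPM in replicates 1 and 2. It was at 323 and 347 CPM with SRPIN340, 450.4 and 468 CPM with Endovion, 419 and 570.4 CPM with THZ531, and 467 and 513 CPM with both inhibitors. All 8 treated libraries lay above both control libraries, and the SRPIN340 libraries lay below those of the other 3 treatments. For members called against these same control libraries, here and below, their place relative to control is no separate evidence. The log2 change was 0.78 (SE 0.18, n = 2 against 2, adjusted p = 0.0161) with SRPIN340 and 1.24 (SE 0.19, adjusted p = 9.79e-06) with Endovion. It was 1.34 (SE 0.19, adjusted p = 1.17e-06) with THZ531 and 1.33 (SE 0.19, adjusted p = 1.05e-06) with THZ531 and Endovion. Adding Endovion to THZ531 moved SNRPF by -0.01 (SE 0.18, adjusted p = 0.994), and adding THZ531 to Endovion moved it by 0.09 (SE 0.18, adjusted p = 0.931).

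LSM8 nascent RNA was at 159.6 and 108 CPM in control, 241 and 209.7 CPM with SRPIN340, 172 and 223 CPM with Endovion, 214 and 199 CPM with THZ531, and 198 and 203 CPM with both inhibitors. Every treated library lay above both control libraries, in some cases by little. The log2 change passed the test with SRPIN340 (0.74, SE 0.19, adjusted p = 0.0371) and THZ531 (0.62, SE 0.20, adjusted p = 0.0381). It was 0.55 (SE 0.20, adjusted p = 0.143) with Endovion and 0.57 (SE 0.20, adjusted p = 0.0589) with both.

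These calls rest in part on control replicate 2, where both genes were low. In total RNA, SNRPF was 2.56-fold lower there than in control replicate 1, the gap that ranked 4 among the 1901 genes over 100 CPM in a control library, and only 10 of those genes were more than 2-fold apart. In 7 of the 10 (CDH1, CHMP5, COX17, DNMT1, HMGB2, SEC61G and SNRPF) all treated libraries lay above both control libraries, as they did in 290 of the 1901 (15.3%). The LSM8 gap was 1.68-fold and ranked 32. Without control replicate 2, the SNRPF nascent log2 change was 0.43 (adjusted p = 0.589) with SRPIN340, 0.88 (adjusted p = 0.00818) with Endovion, 0.99 (adjusted p = 0.000975) with THZ531 and 0.98 (adjusted p = 0.000917) with both inhibitors. The LSM8 nascent changes were then 0.50 (adjusted p = 0.584) with SRPIN340 and 0.38 (adjusted p = 0.419) with THZ531. The calls with SRPIN340 were also lost without SRPIN340 replicate 2, which left 0 of the 2, while leaving out SRPIN340 replicate 1 left 1. Without THZ531 replicate 2, 1 of the 2 THZ531 calls was left. Without control replicate 1, 4 members were called with Endovion and 4 with both inhibitors. The count with both was 3 without control replicate 2, and 2 without Endovion replicate 2, THZ531 replicate 1 or replicate 1 of the combination.

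**Figure D2:**
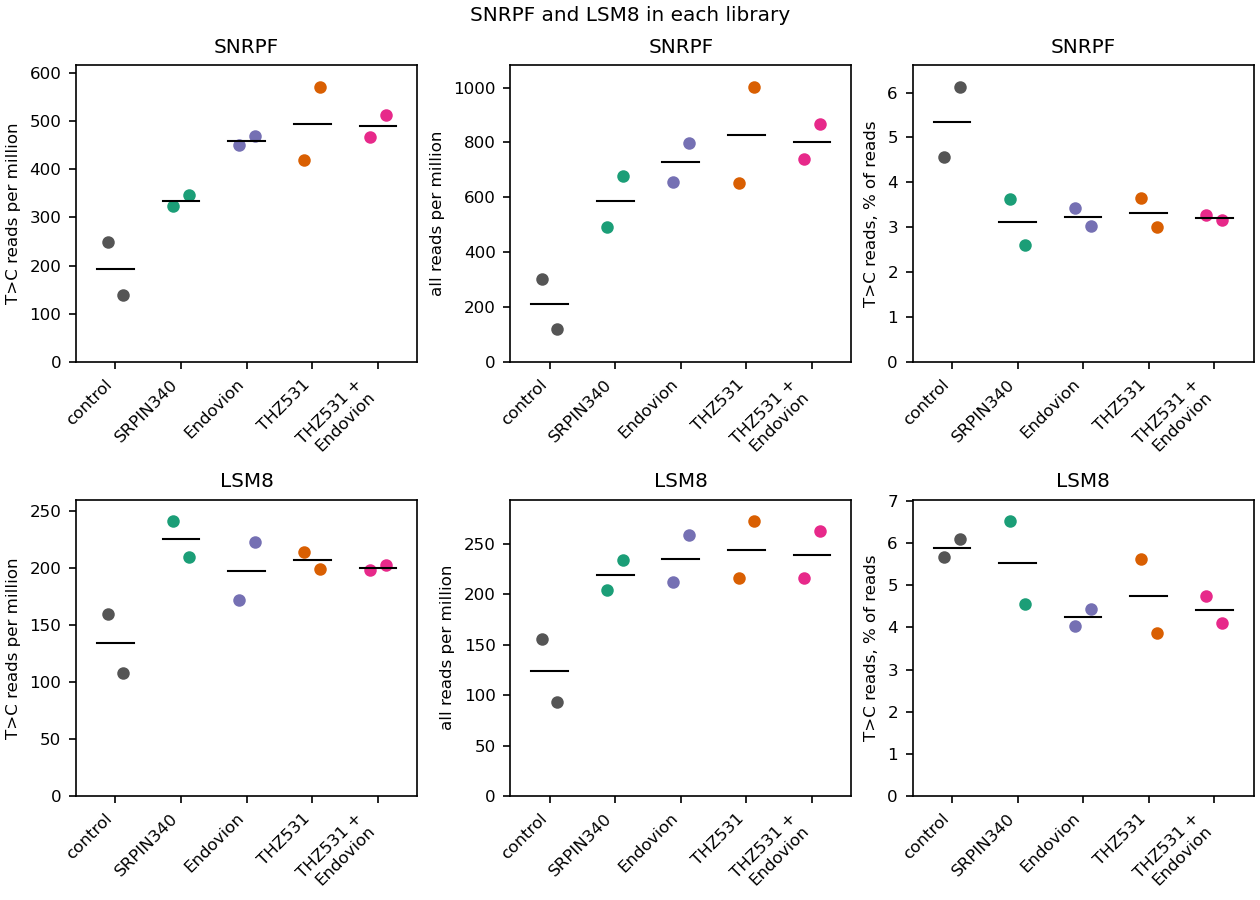
SNRPF and LSM8 in each of the 10 libraries, as nascent CPM, total CPM and labelled share in percent, by group. Each point is 1 library. The lowest SNRPF points are those of control replicate 2, at 138 nascent CPM and 118 total CPM, and its labelled share of 6.12% is the highest.

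Beside these counts, 1.04% of all genes tested were called in either direction with SRPIN340 (2 of 53 members), 2.66% with Endovion (1 of 53), 7.46% with THZ531 (2 of 53) and 8.1% with both inhibitors (1 of 53). With THZ531, alone or with Endovion, the members' share was below that of all genes. The median member moved by -0.06 with SRPIN340 (all genes -0.01), -0.05 with Endovion (-0.01), 0.05 with THZ531 (-0.02) and 0.09 with both (-0.01), in log2 units. Between the combination and THZ531 alone 0 members were called (0.322% of all genes), with 0 up and 3 down at an unadjusted p under 0.05 in edgeR. Between the combination and Endovion alone 0 members were called (1.31% of all genes), with 3 up and 0 down at an unadjusted p under 0.05. DESeq2 called 0 members in both of these comparisons. The percentages of all genes are at the adjusted cut. Their share at the unadjusted cut is not given here, so the unadjusted counts of members are not read as changes.

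**Figure D3:**
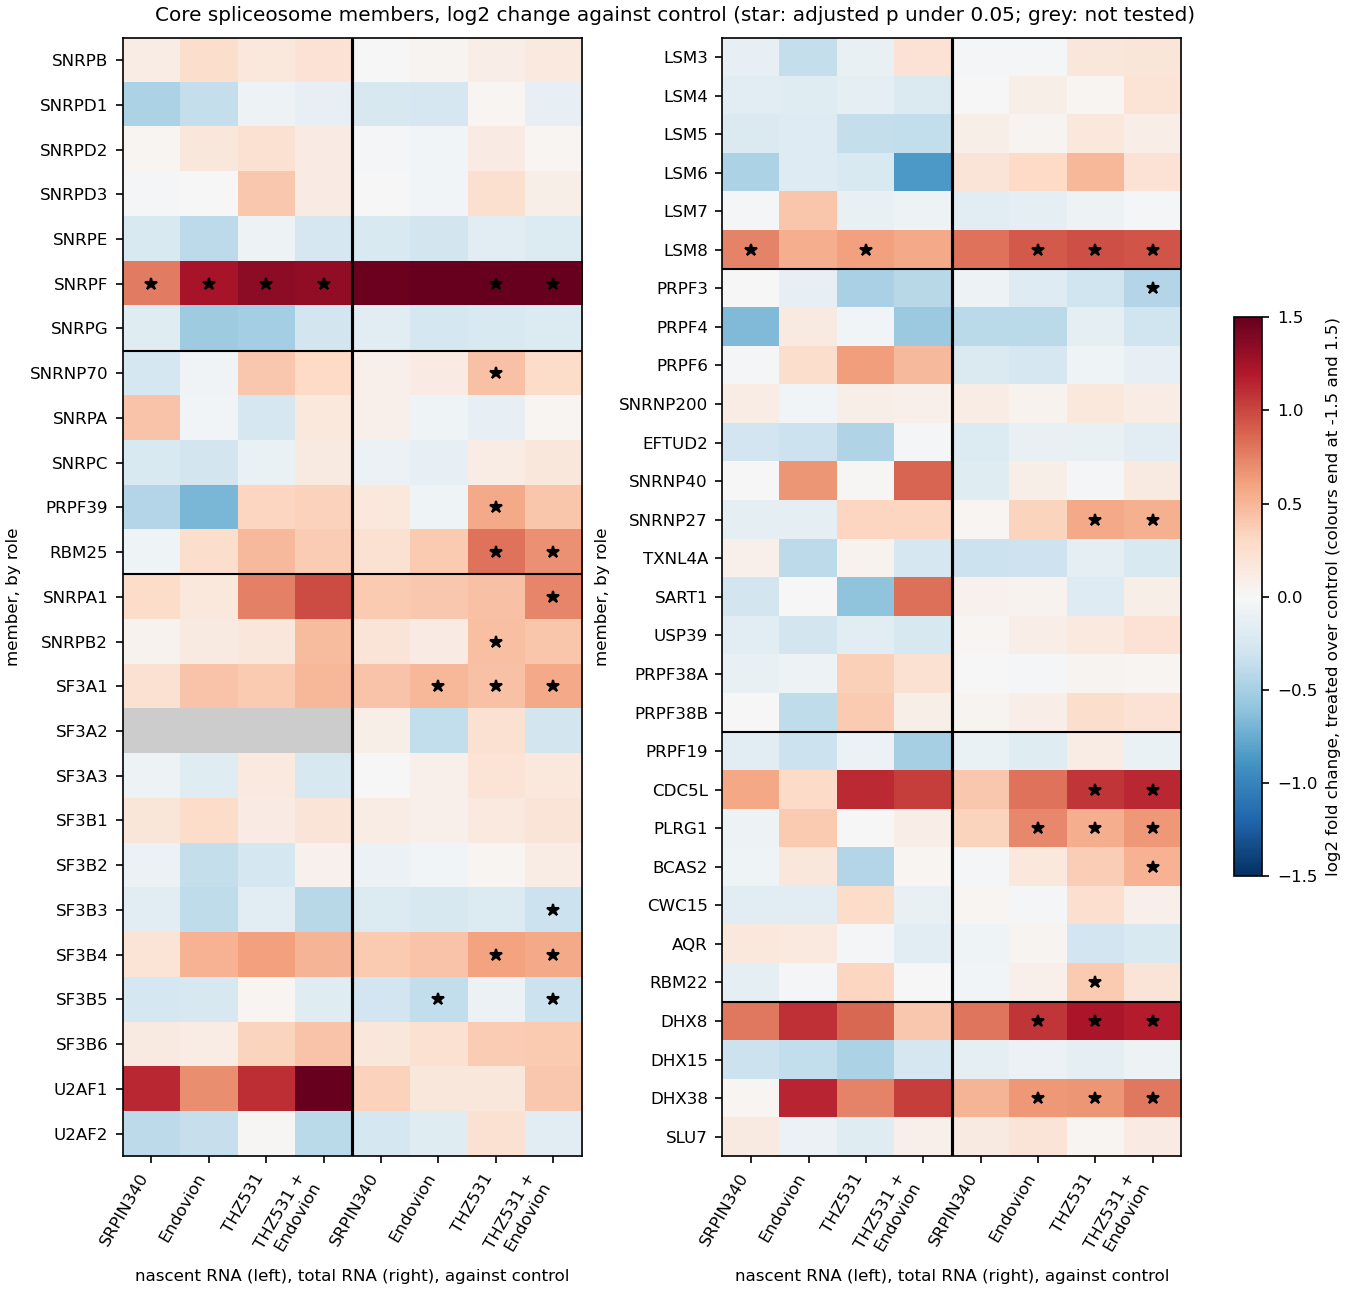
Log2 change of every tested member, grouped by role in rows, for nascent RNA (4 columns) and total RNA (4 columns) of each treatment against control. Stars mark an adjusted p under 0.05 and grey cells were not tested. In the nascent columns the stars lie on SNRPF and LSM8, and 14 and 15 members carry one in the total columns of THZ531 and the combination.

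Total RNA holds older as well as new transcripts. More members were called in it than in nascent RNA with Endovion, THZ531 and both, and so were more of all genes. Nascent RNA has far fewer reads, and whether members differed more in total than in nascent RNA was not tested from these counts. With SRPIN340 0 of 54 members were called (1.96% of all genes in either direction), with 6 up and 4 down at an unadjusted p under 0.05 in edgeR, and DESeq2 called 5. The 1.96% is the share at the adjusted cut in edgeR. The shares of all genes at the unadjusted cut and in DESeq2 are not given here. Counts of members at either, here and below, are therefore not read as changes. With Endovion 5 members rose (9.26%, against 8.9% of all genes) and 1 fell (1.85%, against 2.53%). With THZ531 14 members rose (25.9%, against 16.6% of all genes) and 0 fell, against 14.1% of all genes, with 2 members down at an unadjusted p under 0.05. With both inhibitors 12 members rose (22.2%, against 16.6%) and 3 fell (5.56%, against 12.4%). The Endovion shares were thus near those of all genes. The median member moved by 0.02 with SRPIN340 (all genes 0.03), 0.05 with Endovion (0.02), 0.16 with THZ531 (-0.01) and 0.14 with both (-0.00). Between the combination and THZ531 alone 0 members were called (0.511% of all genes), with 0 up and 2 down at an unadjusted p under 0.05, and between the combination and Endovion alone 0 were called (8.22% of all genes), with 4 up and 1 down. DESeq2 called 0 members in each of the last 2 comparisons.

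**Figure D4:**
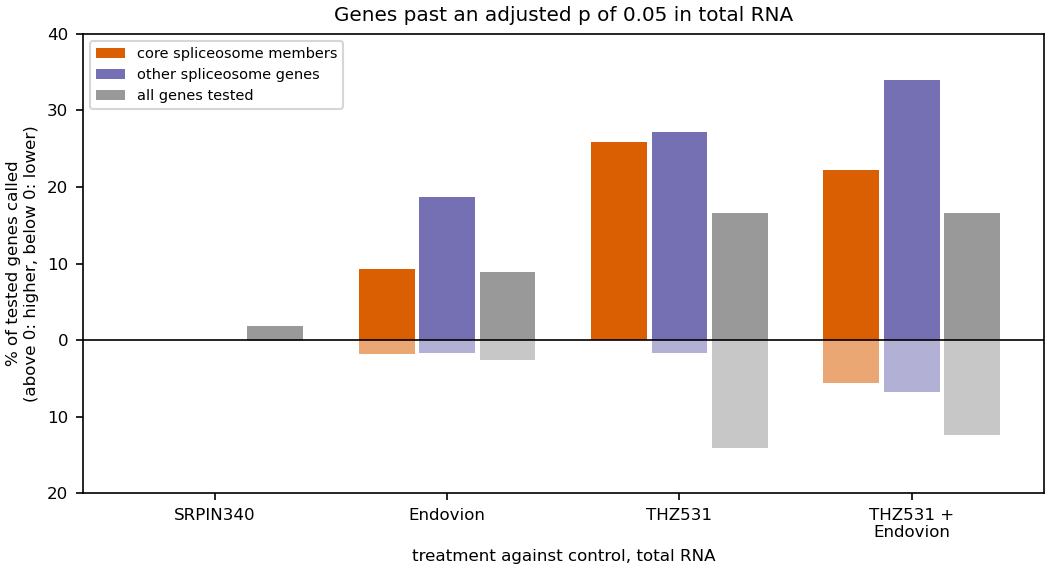
Percent of genes called higher and lower in total RNA at an adjusted p under 0.05, by treatment, for the core spliceosome members, other spliceosome genes and all genes tested. With THZ531 25.9% of members were higher and none lower, against 16.6% and 14.1% of all genes.

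By role, the median total log2 change with THZ531 was 0.44 in the U1 group, 0.37 in the PRP19 group, 0.35 in the helicase group and 0.23 in the U2 group. It was 0.16 in the LSM ring, 0.10 in the Sm core and -0.04 in the tri-snRNP and B complex group. With both inhibitors the same medians were 0.28, 0.20, 0.46, 0.19, 0.19, 0.03 and 0.06, and with SRPIN340 the 7 lay between -0.03 and 0.32. Each is a description over 4 to 13 genes of the same libraries.

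The number of members called in total RNA varied with the libraries used. The share of all genes called in each of these fits is not set beside the counts, here or for nascent RNA above. Whether members moved apart from all genes in them was not tested. Without control replicate 2 the THZ531 count was 4 (DHX8, LSM8, RBM25 and SNRPF), the combination count 7 (DHX38, DHX8, LSM8, PLRG1, RBM25, SF3A1 and SNRPF) and the Endovion count 0. In several of the lost calls the size of the change moved little, as in DHX8 (1.07 and 1.10, without that library) and PLRG1 (0.72 and 0.69) with Endovion. With THZ531 these included CDC5L (1.07 and 0.95), PLRG1 (0.54 and 0.53), SNRNP70 (0.44 and 0.39) and RBM22 (0.39 and 0.34). Where it shrank by over 1.5 times, the value without that library is given beside the gene. Without control replicate 1 the counts were 9 with SRPIN340, 13 with Endovion, 19 with THZ531 and 22 with both. Without THZ531 replicate 2 the THZ531 count was 4, and without either replicate of the combination that count was 8. Without Endovion replicate 1 or 2 the Endovion count was 1 or 2, and without Endovion replicate 2 the combination differed from Endovion alone in 1 member.

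Among the Sm core proteins, which form the ring assembled on each snRNA, SNRPF was the only one of 7 called in total RNA. It was at 303 and 118 CPM in control, 493 and 677 CPM with SRPIN340, 655 and 798 CPM with Endovion, 651 and 1001 CPM with THZ531, and 739 and 866 CPM with both inhibitors. The groups did not overlap with control. This was a log2 change of 1.97 (SE 0.50, adjusted p = 0.0333) with THZ531 and 1.93 (SE 0.49, adjusted p = 0.0371) with both. It was 1.47 (SE 0.49, adjusted p = 0.198) with SRPIN340 and 1.79 (SE 0.49, adjusted p = 0.0804) with Endovion. Without control replicate 2 it was 1.41 (adjusted p = 0.0332) with THZ531 and 1.36 (adjusted p = 0.0403) with both.

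SNRPB, the Sm protein with most T>C reads of the ring, had 427 and 554 nascent CPM in control and 507 to 652 nascent CPM in the treated libraries, and 278 and 316 total CPM in control against 282 to 335 total CPM after treatment. SNRPD1, SNRPD2, SNRPD3, SNRPE and SNRPG passed no test. SNRPD3 was at 219 and 235 total CPM in control and 268 and 270.1 with THZ531 (log2 change 0.24, SE 0.10, adjusted p = 0.0871). SNRPE, at 355 and 358 total CPM in control, was at 247 to 342 total CPM in the treated libraries, all below both control libraries, with log2 changes of -0.28 to -0.16 and adjusted p of 0.205 or more. SNRPD1 and SNRPE had log2 changes below 0 in nascent RNA in all 4 treatments, from -0.47 to -0.08, with adjusted p of 0.222 or more. The SNRPF reads came almost entirely from the 3′ end interval chr12:95866072-95867053, which overlaps the annotation of CCDC38 by 5 bases, and CCDC38 had 0 reads.

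Among the U1 members, RBM25, which binds U1 and acts on 5′ splice site choice, rose most clearly. Its total RNA was at 82.1 and 77.6 CPM in control, 91.1 and 96.7 CPM with SRPIN340, 109 and 99.6 CPM with Endovion, 123 and 158 CPM with THZ531, and 131 and 126 CPM with both inhibitors. Each treated library was above control, and the 4 libraries with THZ531 were the highest. On the log2 scale the change was 0.81 (SE 0.13, adjusted p = 0.000276) with THZ531 and 0.69 (SE 0.13, adjusted p = 0.00107) with both, and without control replicate 2 it was 0.73 (adjusted p = 0.00442) and 0.60 (adjusted p = 0.0158). In nascent RNA, RBM25 was at 117 and 141 CPM in control and 174 and 186 CPM with THZ531, a log2 change of 0.48 (SE 0.20, adjusted p = 0.136).

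SNRNP70, the U1-70K protein, was at 67.5 and 66.5 total CPM in control and 85.8 and 96.0 total CPM with THZ531 (log2 change 0.44, SE 0.11, adjusted p = 0.00844), and at 80.7 and 81.6 total CPM with both (0.28, adjusted p = 0.0766). PRPF39, an alternative splicing factor of U1, was at 20.1 and 14.6 total CPM in control and 24.9 and 26.5 total CPM with THZ531 (0.57, SE 0.19, adjusted p = 0.0344). Its interval shares 2 bases with that of FKBP3, which had 28414 reads, and without control replicate 2 the change was 0.32 (adjusted p = 0.328). SNRPC, which stabilises U1 on the 5′ splice site and had most T>C reads of these members, was at 329.5 and 352 nascent CPM in control and 244 to 385 nascent CPM after treatment, and passed no test.

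In the U2 group, SF3A1, the large subunit of SF3A, was at 243 and 205 total CPM in control, 307 and 298 with SRPIN340, 302 and 330.0 with Endovion, 296 and 311 with THZ531, and 338 and 327 with both inhibitors. No treated library overlapped with control. It rose by 0.50 with Endovion (SE 0.11, adjusted p = 0.0106), 0.44 with THZ531 (SE 0.11, adjusted p = 0.00687) and 0.57 with both (SE 0.11, adjusted p = 0.00141), on the log2 scale. With SRPIN340 the change was 0.43 (SE 0.11, adjusted p = 0.0518). SF3B4, which contacts the pre-mRNA near the branch point, rose from 54.6 and 38.6 total CPM in control to 71.7 and 70.4 CPM with THZ531 (0.61, SE 0.14, adjusted p = 0.00543) and 71.3 and 67.4 CPM with both (0.57, SE 0.15, adjusted p = 0.00816). With control replicate 2 left out, SF3B4 was at 0.34 (adjusted p = 0.102) and 0.30 (adjusted p = 0.158), and SF3A1 at 0.33 (adjusted p = 0.184) with Endovion, 0.28 (adjusted p = 0.114) with THZ531 and 0.41 (adjusted p = 0.031) with both.

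The U2 snRNP's own proteins were called in different treatments. SNRPB2 was at 111 and 93.0 total CPM in control and 133 and 146 with THZ531 (0.45, SE 0.15, adjusted p = 0.0348). SNRPA1 was at 20.7 and 12.3 total CPM in control and 30.3 and 24.6 with both inhibitors (0.73, SE 0.21, adjusted p = 0.0188). For both genes, whether THZ531 and the combination differed was tested with no call, and without control replicate 2 the changes were 0.29 (adjusted p = 0.268) and 0.36 (adjusted p = 0.248).

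Of the SF3B subunits, 2 fell. SF3B5, a small stabilising subunit, was at 803 and 946 total CPM in control, 731 and 699.8 with SRPIN340, 645 and 706 with Endovion, 839 and 809.5 with THZ531, and 707 and 695 with both. The libraries with SRPIN340 or Endovion lay below both control libraries, and those with THZ531 alone lay between them. Its log2 change was -0.37 with Endovion (SE 0.11, adjusted p = 0.0344), -0.32 with both (SE 0.11, adjusted p = 0.0337) and -0.09 with THZ531 alone (adjusted p = 0.584). SF3B3, the large scaffold of SF3B, was at 257 and 326 total CPM in control and 225 and 241 with both (-0.32, SE 0.12, adjusted p = 0.0483). Without control replicate 2 both were above the threshold, with adjusted p of 0.216 and 0.170 for SF3B5 and 0.305 for SF3B3, whose change was then -0.19.

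U2AF2 had the most T>C reads of any member, with 1295 and 1720.3 nascent CPM in control. It was at 1175 and 1115 with SRPIN340, 1171 and 1206 with Endovion, 1461 and 1583 with THZ531, and 1185 and 1087 with both inhibitors. The libraries with SRPIN340 or Endovion lay below both control libraries, and those with THZ531 alone lay between them. The fitted log2 values were -0.40 (SE 0.14, adjusted p = 0.222) with SRPIN340, -0.34 (SE 0.14, adjusted p = 0.229) with Endovion, 0.01 (SE 0.14, adjusted p = 0.974) with THZ531 and -0.41 (SE 0.14, adjusted p = 0.0649) with both, so none passed the test. SF3B1, the branch point clamp, passed no test in any readout, with total log2 changes from 0.07 to 0.19.

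In the LSM ring, LSM8 total RNA was at 156 and 93.1 CPM in control, 205 and 234 with SRPIN340, 213 and 259 with Endovion, 216 and 272 with THZ531, and 217 and 262 with both. No treated library overlapped with control. Its log2 change was 0.81 (SE 0.24, adjusted p = 0.124), 0.92 (SE 0.24, adjusted p = 0.0448), 0.97 (SE 0.24, adjusted p = 0.0168) and 0.94 (SE 0.24, adjusted p = 0.0199) in that order. The last 3, without control replicate 2, were 0.55 (adjusted p = 0.126), 0.61 (adjusted p = 0.024) and 0.57 (adjusted p = 0.0344). The other 5 measured members, LSM3, LSM4, LSM5, LSM6 and LSM7, passed no test. LSM5, which had most T>C reads of the ring, went from 337 and 363 nascent CPM in control to 259 to 313 nascent CPM in the treated libraries, all below both control libraries, with log2 changes of -0.37 to -0.19 and adjusted p of 0.168 or more. LSM6 was at 68.2 and 54.6 nascent CPM in control and 41.5 and 25.6 with both inhibitors, a log2 change of -0.86 (SE 0.33, adjusted p = 0.0964).

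Of the 12 tri-snRNP and B complex members measured, 1 rose with THZ531, and 1 rose and 1 fell with both. SNRNP27, a small tri-snRNP protein, was at 33.8 and 31.0 total CPM in control, 43.4 and 53.4 with THZ531 (0.57, SE 0.15, adjusted p = 0.00942) and 43.2 and 50.9 with both (0.54, SE 0.15, adjusted p = 0.0145). PRPF3, which binds the U4/U6 duplex, was at 31.8 and 36.0 total CPM in control, 29.1 and 26.1 with THZ531, and 23.9 and 26.2 with both (-0.44, SE 0.14, adjusted p = 0.0278). Its levels with both inhibitors were below both control libraries, and without control replicate 2 the change was -0.39 (adjusted p = 0.123). PRPF38A, a B complex protein with most T>C reads of the group, was at 159.6 and 221 nascent CPM in control and at 225 and 262 with THZ531 (0.35, SE 0.19, adjusted p = 0.27).

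PRPF4, the partner of PRPF3 on U4/U6, was at 41.8 and 42.5 nascent CPM in control, 25 and 28.2 with SRPIN340 and 28 and 29.5 with both, and passed no test (adjusted p = 0.533 and 0.403). Its mean was 46.2 nascent CPM with Endovion and 40.4 with THZ531, so the lower levels were not shared by all treatments.

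The U5 helicase SNRNP200 had total log2 changes from 0.05 to 0.16 and the U5 GTPase EFTUD2 from -0.20 to -0.11, with no call. The interval of EFTUD2 overlaps that of HIGD1B by 84 bases, but HIGD1B had 0 reads. TXNL4A, a small U5 protein, was at 215 and 229.7 total CPM in control and 173 to 205 CPM in the treated libraries, all below both control libraries. Its change was -0.32 with SRPIN340 (adjusted p = 0.0985) and -0.31 with Endovion (adjusted p = 0.0581). It shares 12 bases with HSBP1L1, which had 2782 reads.

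In the PRP19 complex, CDC5L, a scaffold of the complex, was at 36.4 and 32.1 total CPM in control, 40.8 and 50.1 with SRPIN340, 65.1 and 55 with Endovion, 50.7 and 94.0 with THZ531, and 74.2 and 76.4 with both. All treated libraries lay above control, and the THZ531 libraries differed most from each other. The fitted log2 change was 1.07 with THZ531 (SE 0.24, adjusted p = 0.00863) and 1.14 with both (SE 0.24, adjusted p = 0.007). PLRG1, another core protein, was at 38.6 and 39.8 total CPM in control, 47.3 and 51.4 with SRPIN340, 61.9 and 67.0 with Endovion, 45.5 and 68.9 with THZ531, and 60.3 and 62.6 with both. It rose with Endovion (0.72, SE 0.16, adjusted p = 0.0113), THZ531 (0.54, SE 0.16, adjusted p = 0.018) and both (0.65, SE 0.16, adjusted p = 0.00717). The groups again did not overlap with control, which is no separate evidence for members called against it.

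BCAS2, a further core protein, was at 44.5 and 38.9 total CPM in control and 57.4 and 62.7 with both inhibitors (0.53, SE 0.14, adjusted p = 0.0108). RBM22, which contacts U6 and the pre-mRNA in the activated spliceosome, was at 167 and 163 total CPM in control and 215 and 219 with THZ531 (0.39, SE 0.10, adjusted p = 0.00856). PRPF19, the ubiquitin ligase that names the complex, had no call in any readout, with 305 and 327 nascent CPM in control and 189 to 319 nascent CPM after treatment. AQR, an intron-binding helicase, was at 76.5 and 81.9 total CPM in control and 60.4 and 69 with THZ531 (-0.29, SE 0.12, adjusted p = 0.0744).

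Among the helicases, DHX8 and DHX38 rose in total RNA with each treatment that held Endovion or THZ531. DHX8, which releases the spliced mRNA, was at 5.74 and 6.39 total CPM in control, 9.27 and 11.8 with SRPIN340, 14.8 and 10.6 with Endovion, 12.2 and 16.3 with THZ531, and 12.1 and 15.4 with both. Control levels were the lowest of the 10. Against control the log2 change was 1.07 (SE 0.23, adjusted p = 0.0101), 1.23 (SE 0.23, adjusted p = 0.00124) and 1.18 (SE 0.23, adjusted p = 0.00174) in the last 3, and 0.80 (SE 0.23, adjusted p = 0.0795) with SRPIN340. It held 2740 reads over the 10 libraries.

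DHX38, the helicase before the second step, was at 35.6 and 23.9 total CPM in control, 42.2 and 42.4 with SRPIN340, 47.3 and 46.0 with Endovion, 46.1 and 47.9 with THZ531, and 50.5 and 52.8 with both. All treated libraries were above control. As a log2 change this was 0.65 with Endovion (SE 0.16, adjusted p = 0.0174), 0.66 with THZ531 (SE 0.16, adjusted p = 0.00562) and 0.79 with both (SE 0.16, adjusted p = 0.00187). Control replicate 2 held the lowest level, and without it the changes were 0.34 (adjusted p = 0.27), 0.36 (adjusted p = 0.104) and 0.49 (adjusted p = 0.0357). Its interval overlaps PMFBP1 by 263 bases, and PMFBP1 had 0 reads. In nascent RNA DHX38 was at 30.3 and 16.9 CPM in control and 53.7 and 51.9 CPM with Endovion (1.15, SE 0.37, adjusted p = 0.0793). DHX15, which takes the spliceosome apart, went the other way in nascent RNA, from 293 and 341 CPM in control to 227 and 228 CPM with THZ531 (-0.48, SE 0.18, adjusted p = 0.0886), with no call. SLU7, a second-step factor, passed no test.

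**Figure D5:**
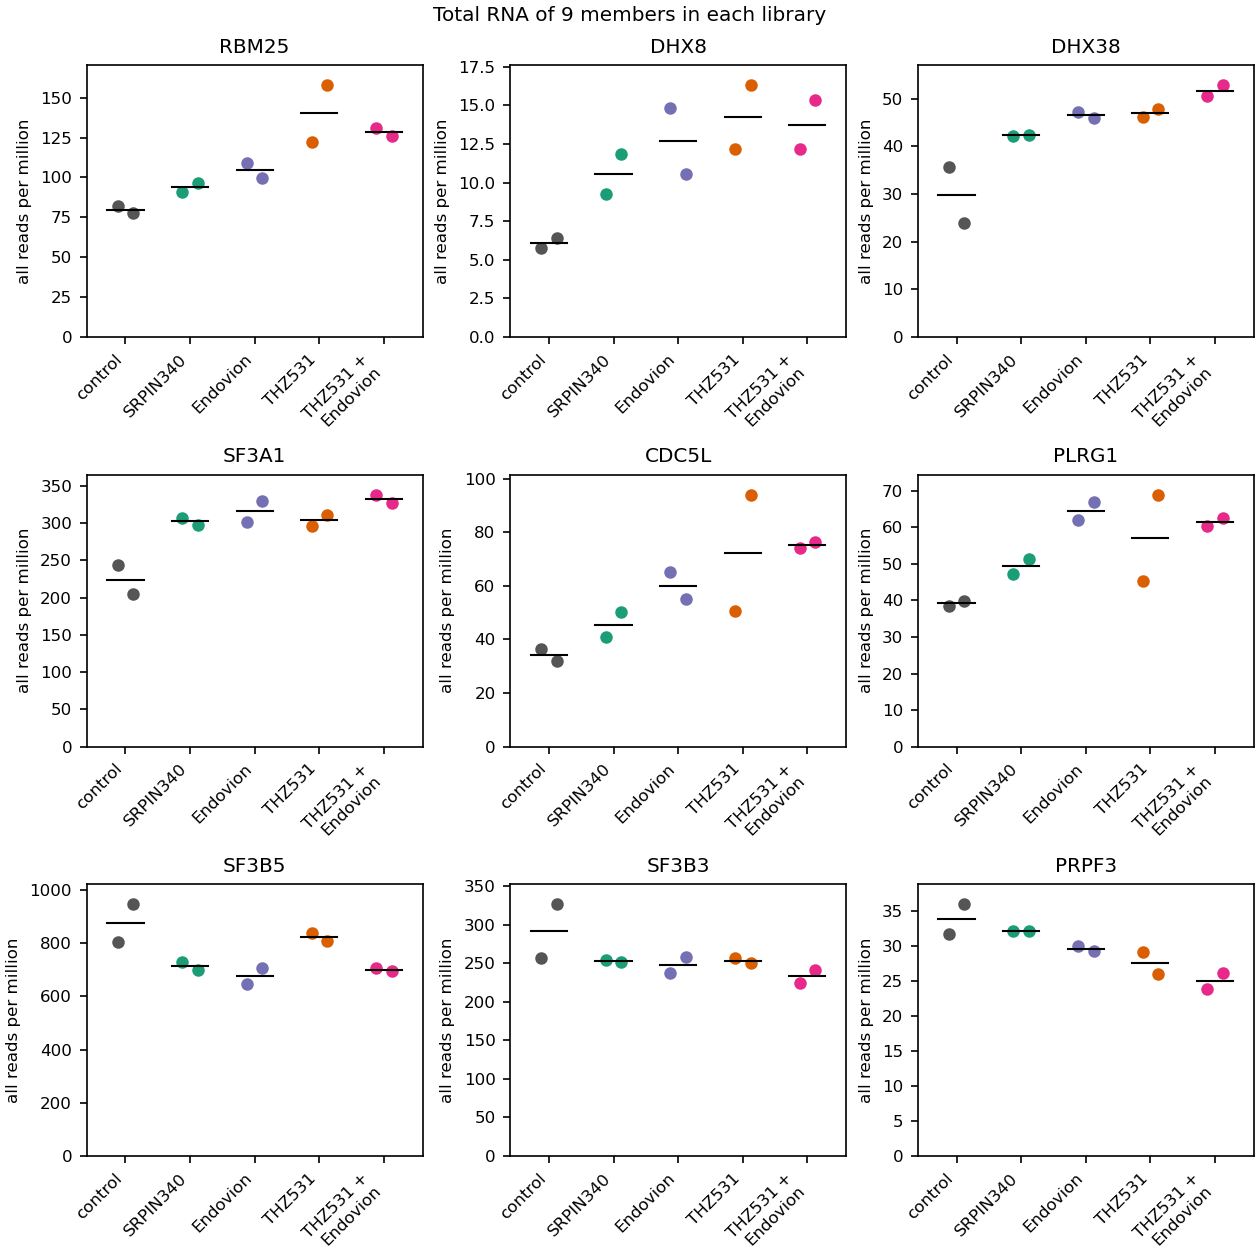
Total RNA of 9 members in each library, in CPM, by group, with 1 point per library. The members shown were called against these same control libraries, so their place relative to control is no separate evidence. RBM25, DHX8, DHX38, SF3A1, CDC5L and PLRG1 lie above control in every treated library. SF3B5, SF3B3 and PRPF3 are lower than control in the combination.

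The labelled share was called for SNRPF alone. Its share was 4.56% and 6.12% in control, 3.62% and 2.60% with SRPIN340, 3.43% and 3.02% with Endovion, 3.65% and 3% with THZ531, and 3.27% and 3.15% with both inhibitors, and no treated library overlapped with control. The log2 change relative to all genes was -0.70 (SE 0.14, adjusted p = 0.0156) with SRPIN340, -0.54 (SE 0.14, adjusted p = 0.0675) with Endovion, -0.59 (SE 0.14, adjusted p = 0.0468) with THZ531 and -0.57 (SE 0.14, adjusted p = 0.0264) with both. Among all genes, 0.181%, 0.442%, 0.342% and 1.02% were called in that order. With Endovion 0 members were called, with 3 up and 1 down at an unadjusted p under 0.05, and DESeq2 called 0. The share of all genes at that unadjusted cut is not given, so this count is not read as a change. With THZ531, alone or with Endovion, SNRPF rose in both read classes, and more in all reads than in labelled reads. Without control replicate 2 the changes were -0.48 (adjusted p = 0.37), -0.38 (adjusted p = 0.42) and -0.36 (adjusted p = 0.345) for SRPIN340, THZ531 and both. The SRPIN340 call was also lost without SRPIN340 replicate 2 or either replicate of the combination. The THZ531 call was lost without either replicate of Endovion, THZ531 or the combination, and the call with both was lost without either replicate of the combination. With Endovion 1 member was called once either control library or SRPIN340 replicate 1 had been left out.

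These share changes are relative to the typical gene. Left without scaling, the median of all genes lay at -0.11, -0.19, -0.09 and -0.16 with SRPIN340, Endovion, THZ531 and both, against -0.02, -0.02, -0.01 and -0.01 with it. Summed over the 58 members, the share was 6.31% ± 0.0808 (SD, n = 2) in control, 5.71% ± 0.484 with SRPIN340, 5.49% ± 0.134 with Endovion, 5.91% ± 0.519 with THZ531 and 5.52% ± 0.00922 with both. Against control, exact permutation of the libraries, two-sided, returned p = 0.33, 0.33, 0.67 and 0.33, and 0.33 is the smallest that 2 against 2 libraries allow. U2AF2 alone adds to all of these, and without it the means were 5.45%, 5.09%, 4.89%, 5.17% and 4.97%. With SNRPF also left out they were 5.47%, 5.26%, 5.07%, 5.37% and 5.16%.

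Over the members, nascent and total changes of the same treatment had a Pearson r of 0.69 to 0.74 against control (n = 53 genes), which is across genes that share their libraries and, since T>C reads are part of all reads, also share reads. The directions were opposite in 20 members with SRPIN340, 16 with Endovion, 15 with THZ531 and 8 with both. For comparisons with no library in common, the members' total changes with THZ531 over control and with the combination over Endovion had an r of 0.41 and a rho of 0.51 (n = 54 genes), against 0.56 and 0.58 over all genes. In nascent RNA r was 0.21 (n = 53 genes), against 0.35 over all genes. The other such pair is Endovion over control and the combination over THZ531. For it the members' total changes had an r of 0.29 and a rho of 0.43, against 0.17 and 0.28 over all genes, and the nascent r was 0.14, against 0.11.

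The study looked at gene length for both kinases and at exon number for SRPK1. It took lengths from a published list and used the significantly affected genes. Here span is the genomic distance from the start to the end of a gene, over all members tested. The measures and the genes were not matched, so the values below are no test of the study's result. The members span 0.69 to 126 kb with a median of 18.9 kb and have up to 45 exons. The nascent change was at a Spearman rho with span of 0.07 with SRPIN340, -0.00 with Endovion, 0.03 with THZ531 and 0.01 with both, and with exon number of 0.07, 0.12, 0.01 and 0.05 (n = 53 genes). Members longer than the median of the 53 had a median nascent change of -0.02, -0.07, 0.07 and 0.10 in these treatments, and the shorter ones -0.08, -0.02, 0.03 and 0.09. These are descriptions over genes that share libraries.

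Genes that act with the core were looked at beside it, in lists drawn up for the same purpose. Of 63 other spliceosome genes, 59 were tested in total RNA, and 0 were called with SRPIN340. With Endovion 11 rose (18.6%, against 8.9% of all genes) and 1 fell (1.69%, against 2.53%). With THZ531 16 rose (27.1%, against 16.6%) and 1 fell (1.69%, against 14.1%), and with both 20 rose (33.9%, against 16.6%) and 4 fell (6.78%, against 12.4%). In nascent RNA, 57 were tested, with 2 up and 0 down with SRPIN340, 3 up and 1 down with Endovion, 6 up and 0 down with THZ531, and 10 up and 1 down with both, beside 1.04%, 2.66%, 7.46% and 8.1% of all genes in either direction. BUD13, of the complex that retains unspliced pre-mRNA, had 17 to 21 T>C reads per library in control and 48 to 84 after treatment, and nascent log2 changes of 1.61, 1.77, 2.13 and 2.27 in the 4 treatments (adjusted p = 0.0103, 0.00151, 4.78e-05 and 1.04e-05). EIF4A3, the helicase of the exon junction complex, rose by 0.69, 0.82, 0.96 and 1.04 on the log2 scale in nascent RNA (adjusted p = 0.0138, 0.000692, 3.67e-05 and 6.21e-06). LUC7L2, a U1-associated factor, rose by 1.21 with Endovion, 1.37 with THZ531 and 1.32 with both (adjusted p = 0.000646, 5.96e-05 and 9.46e-05). Control replicate 2 was low in some of these genes too. In control replicates 1 and 2, EIF4A3 was at 384 and 241 total CPM and BUD13 at 2.46 and 1.22. LUC7L2 was closer, at 149 and 133 total CPM. Fits without control replicate 2 are not given for this list or for the snRNP assembly genes below. How far their calls rest on that library is therefore not shown.

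RBM17 rose in total RNA from 127 and 114 CPM in control to 208 and 287 CPM with THZ531 (log2 change 1.04, SE 0.14, adjusted p = 8.43e-05). PRPF18, a second-step factor, was at 4.06 and 4.08 total CPM in control, 9.59 and 13.4 with THZ531 (1.49, SE 0.25, adjusted p = 0.000563), and 8.25 and 6.49 with both, and differed between the combination and Endovion alone (0.89, adjusted p = 0.0441). CHERP fell in nascent RNA with Endovion, by 0.57 on the log2 scale (adjusted p = 0.049).

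Of 16 genes of snRNP assembly, all were tested in total RNA. With Endovion 1 was up (6.25%, against 8.9% of all genes). With THZ531 4 were up (25%, against 16.6%) and 2 down (12.5%, against 14.1%), and with both 5 were up (31.2%, against 16.6%) and 3 down (18.8%, against 12.4%). In a list of 16, each of these shares lies within 3 genes of that of all genes. GEMIN6, a subunit of the SMN complex that loads the Sm ring, fell from 25.7 and 20.6 total CPM in control to 13.2 and 8.42 CPM with THZ531 (-1.09, SE 0.22, adjusted p = 0.00175) and 8.55 and 9.63 CPM with both (-1.35, SE 0.22, adjusted p = 0.000452). Among the genes of the list that moved up with THZ531 were DDX20 by 0.65, SART3 by 0.44 and CLNS1A by 0.42, with adjusted p of 0.00832, 0.0116 and 0.0235. In nascent RNA, 15 were tested, and STRAP rose with THZ531 (0.54, adjusted p = 0.0276) and with both (0.50, adjusted p = 0.0438).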

How the data were processed

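SLAM-seq of 10 libraries of 22RV1 cells was analysed. The authors made the tables with SLAM-DUNK on GRCh38 and deposited, for each 3′ end interval of a transcript, the count of reads and the count of T>C reads. The labels' processing notes name Bowtie2 2.3.4.1, SAMtools 1.6 and DESeq2 1.38.2. Each table held 104653 intervals of 75026 transcripts. Of these, 92910 on main chromosomes were matched to GENCODE 44, and where intervals overlapped the better covered was kept, which left 57437 intervals, summed over 31015 genes. The intervals not used held 3.57% of T>C reads.

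One robust quasi-likelihood model of edgeR 4.0.16 (R 4.3.3) was fitted to the counts of all 10 libraries after TMM scaling and filterByExpr, with 5 residual degrees of freedom, and p-values were adjusted by Benjamini-Hochberg over all genes tested. For the labelled share, T>C and other reads entered as separate columns with library as a block, and the treatment-by-class term was tested. Alternatives were DESeq2 1.42.0, other scaling, filters, interval sums and thresholds, a replicate block, 2-group fits and leaving out each library. Each test was first tried on simulated counts for THZ531 against control. With a simulated log2 change of 1, the nascent test called 22.4% of the changed genes in the right direction, at an adjusted p under 0.05. The test of total RNA called 64.6% and that of the labelled share 59.5%. With a simulated log2 change of 2 the nascent test called 76.8% and the test of total RNA 85.6%. Many true changes of 1 log2 unit would thus be missed, most of all in nascent RNA.

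Values by library are given for the member of each role group with most T>C reads, for up to 6 members with the smallest p per comparison, readout and direction among those called, and for members whose interval overlaps that of another gene or that are listed at 0. Further members are named for their role. Some members are shown with values by library outside this rule: further called ones, and some without a call, including SNRPD3, SNRPE, LSM6, PRPF4 and AQR. For the other lists, up to 4 called genes per comparison were eligible. The members and lists were chosen with earlier results of these data known. The study's methods also name SRPIN340 with THZ531, which was not analysed here.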

Additional observations from a re-analysis of the deposited data

Results flagged for a closer look

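The effect of THZ531 on SNRPF nascent RNA differed with and without Endovion. The log2 change with THZ531 was 1.34 over control, and 0.09 when THZ531 was added to Endovion, a difference of 1.25 (SE 0.26, adjusted p = 0.0184 over 9946 genes, edgeR interaction term, 2 libraries per group). All 8 treated libraries were above control. Of all genes tested, 30 (0.302%) were called in this test in nascent RNA, with 1 of 53 members, and 5 members at an unadjusted p under 0.05. In total RNA 1 of 14690 genes was called and 0 of 54 members, with 9 at an unadjusted p under 0.05. The share of all genes at that unadjusted cut is not given here, so these 2 counts of members are not read as changes.

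The control libraries enter this difference with their own spread, since replicate 2 was low for SNRPF. Without control replicate 2 the difference was 0.89 (adjusted p = 0.245), and without control replicate 1 it was 1.75 (adjusted p = 1.34e-05). It also lost the call without THZ531 replicate 2 (1.01, adjusted p = 0.301), without Endovion replicate 1 (1.28, adjusted p = 0.0899) or 2 (1.22, adjusted p = 0.104), without replicate 1 (1.18, adjusted p = 0.132) or 2 (1.32, adjusted p = 0.0603) of the combination, and when all intervals were summed (1.25, adjusted p = 0.427). With the replicate number as a block it was 1.25 (adjusted p = 0.0306). These alternatives were chosen after seeing the data, and what sets the difference was not tested.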

How the results depend on the processing

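No member's change that passed the test reversed under any alternative: 610 such values kept direction and call, and 150 kept the direction but not the call. In nascent RNA, the count of members called with SRPIN340 (2 as reported) was 1 with DESeq2, 1 when scaled by all reads, and 0 with plain sums of intervals, the study's threshold or a 2-group fit. With Endovion (1) it was 0 with plain sums and 3 with the study's threshold. With THZ531 (2) it was 1 with DESeq2, plain sums or a 2-group fit. With both inhibitors (1) it was 2 with no filter or with the best interval of each gene and 3 with the study's threshold. Leaving out 1 library at a time gave 0 to 3, 1 to 4, 1 to 3 and 1 to 4.

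In total RNA, the count with SRPIN340 (0) was 5 with DESeq2 or no filter, and 1 with the best interval or the study's threshold. With Endovion (6) it was 10 with no filter and 2 with the study's threshold. With THZ531 (14) it was 3 with the study's threshold and 7 with a 2-group fit, and with both inhibitors (15) it was 3 with the study's threshold. The combination against THZ531 alone (0) gave 1 with no filter. Leaving out 1 library at a time gave 0 to 9, 0 to 13, 4 to 19 and 7 to 22, and 0 to 1 for the combination against Endovion alone.

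For the labelled share, SRPIN340 (1) gave 0 with plain sums, the study's threshold, no scaling between libraries or a 2-group fit. Endovion (0) gave 1 with no filter. THZ531 (1) gave 2 with no filter and 0 with plain sums, the best interval, the study's threshold, no scaling or a 2-group fit, and both inhibitors (1) gave 0 with plain sums. Leaving out 1 library at a time gave 0 to 1 in each. The study's threshold was an unadjusted p under 0.05 with a log2 change of at least 1. The fits with no scaling were chosen after seeing the data. No count of members under these alternatives was tested against the share of all genes under the same setting.

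The labels give replicate numbers 1 and 2 in each group but do not say that a number marks a shared culture or day. Differences between replicates correlated between groups at -0.07 to 0.06 in nascent RNA and -0.28 to 0.37 in total RNA, with 3 of 10 pairs of groups over 0.1. With the replicate number as a block, the nascent count with both inhibitors was 5 in place of 1, and the counts in total RNA were 5, 13 and 14 with Endovion, THZ531 and both. Over all genes, scaling nascent counts by all reads turned the Endovion calls from 203 up and 62 down to 166 up and 95 down, and the combination against THZ531 from 14 up and 18 down to 9 up and 20 down. Members with few T>C reads, such as U2AF1, could be called in nascent RNA only for large changes.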
